A study of Mus musculus with 30 samples.

Results

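The effect of a high-fat diet on the microRNAs (miRNAs) of mesenteric fat, the fat that surrounds the intestine, was examined in 10 of the 30 samples of the series and across all 566 mouse miRNA probes of the 626 rows of the deposited table. The samples were chosen by their titles: 5 were mesenteric adipose tissue (MAT) of mice on a high-fat diet (HFD, 60% fat) and 5 were MAT of mice on a normal chow diet (NCD). All were male C57BL6 mice, an inbred laboratory strain, and both diets were given ad libitum from week 4 to week 20 of age, so no allele or drug differed between the groups. Whole tissue was frozen and its total RNA hybridised to probes that carry a fluorescent barcode. Samples are numbered within each diet, but nothing says that each came from its own animal, so the p-values rest on a spread that may be technical.

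A miRNA is a short RNA that pairs with messenger RNAs, mainly through its bases 2 to 8, the seed, and lowers their translation or stability. miRNAs that share a seed can reach overlapping sets of targets, and miRNAs cut from 1 hairpin or transcribed from 1 cluster share a promoter. In fat, miRNAs act on the differentiation of adipocytes, on inflammatory signalling and on the vessels and connective tissue between the fat cells, and bulk tissue contains all of these cells. In such tissue a larger number of cells of a type and more of a miRNA per cell cannot be told apart.

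The sequences that carry the main differences are shown first, from RefSeq (GRCm38.p6), 5′ to 3′, with the seed in capitals. All 24 miRNAs called below had a mature sequence there. miR-221 and miR-222 are shown because they share a seed and lie 594 bases apart on chromosome X, at chrX:19146307-19146329 and chrX:19146901-19146923 on the minus strand, and both had large differences.
miR-221-3p: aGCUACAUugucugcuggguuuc
miR-222-3p: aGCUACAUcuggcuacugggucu
Outside the seed they differ, and 11 of 23 aligned positions are the same. The arms of miR-335 come from 1 hairpin within the gene Mest on the plus strand of chromosome 6, at chr6:30741314-30741336 and chr6:30741354-30741375, and have different seeds.
miR-335-5p: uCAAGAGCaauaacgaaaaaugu
miR-335-3p: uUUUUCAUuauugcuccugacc
The seed shared by miR-322 (chrX:53054306-53054327, minus strand, within the lncRNA C430049B03Rik), miR-15a (chr14:61632075-61632096, minus strand, within Dleu2), miR-16 (chr14:61631936-61631957, minus strand, and chr3:69009918-69009939, plus strand) and miR-195 (chr11:70235062-70235082, plus strand) is shown because its members differed in their calls.
miR-322-5p: cAGCAGCAauucauguuuugga
miR-15a-5p: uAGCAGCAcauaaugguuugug
miR-16-5p: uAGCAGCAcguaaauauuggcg
miR-195a-5p: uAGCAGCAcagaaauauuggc
miR-146b (chr19:46342790-46342811, plus strand) and miR-146a (chr11:43374435-43374456, minus strand) share a seed and 20 of 22 bases, and miR-27a (chr8:84208727-84208747, plus strand) and miR-27b (chr13:63300760-63300780, plus strand) share 20 of 21.
miR-146b-5p: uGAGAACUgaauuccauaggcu
miR-146a-5p: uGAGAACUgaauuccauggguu
miR-27a-3p: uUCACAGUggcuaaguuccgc
miR-27b-3p: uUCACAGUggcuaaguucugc
miR-652 (chrX:142739060-142739080, plus strand, within Tmem164), the arms of miR-199a, which are encoded in 2 places (within Dnm3, the 5p arm at chr1:162217844-162217866 on the plus strand, and within Dnm2, the 5p arm at chr9:21496537-21496559 on the minus strand), and miR-210 (chr7:141221407-141221428, minus strand), the only miRNA called lower, complete the set.
miR-652-3p: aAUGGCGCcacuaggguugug
miR-199a-5p: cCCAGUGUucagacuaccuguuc
miR-199a-3p: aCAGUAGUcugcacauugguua
miR-210-3p: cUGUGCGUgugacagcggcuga

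The deposited values are signal, that is, barcode counts from which background had been taken off and which had been multiplied by 1 factor per sample. Total miRNA signal was 392031 ± 71610 in HFD fat and 312788 ± 36650 in NCD fat (SD, n = 5 each), a log2 difference of 0.31 (exact two-sided permutation test, p = 0.0556). The number of probes over the detection limit of 29.8 was 159.4 ± 11.3 in HFD fat and 154.6 ± 7.30 in NCD fat (exact two-sided permutation test, p = 0.437). This limit lies 2 SD above the negative controls' mean, and a probe was tested when over it in at least 5 of the 10 samples, which 157 probes were. Of the others, 366 were over the limit in none of the 10 samples and 43 in 1 to 4. Samples of 1 diet correlated at 0.941 to 0.973 in HFD fat and at 0.932 to 0.977 in NCD fat over the tested probes, and samples of different diets at 0.89 to 0.955.

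The tissue label was checked with miRNAs that mark other cell types, because the panel holds no miRNA that marks adipocytes alone. Endothelial and smooth muscle miRNAs were abundant in all 10 samples. The summed signal of miR-143 and miR-145, which mark smooth muscle, ran from 16036 to 92217 in HFD fat and from 24939 to 83721 in NCD fat. Of the pancreas miRNAs, miR-375, miR-216a, miR-216b, miR-217 and miR-802 were over the limit in no sample. miR-7a, on the same list, was over it in 2 HFD samples and 1 NCD sample. Of the gut and other epithelial miRNAs, miR-192, miR-200a, miR-200c, miR-141 and miR-429 were over the limit in no sample. Others on that list were over it: miR-194, miR-200b and miR-203 in all 10 samples, and miR-205 in 2 HFD samples. miR-194 averaged 97.4 in HFD fat and 91.2 in NCD fat. The liver miRNA miR-122 was over the limit in NCD sample 4 alone, at 147.9. Lymphocyte and red cell markers varied widely within each diet. miR-150, a lymphocyte miRNA, had 22178, 2658, 3321, 3405 and 12007 in HFD fat, against 14634, 18272, 9122, 11349 and 2732 in NCD fat. HFD samples 1 and 5 were thus the high ones of their group and NCD sample 5 the low one of its group. The red cell miRNA miR-451 had 6964, 57354, 2710, 6024 and 3414 in HFD fat, against 2667, 5201, 3545, 5382 and 7622 in NCD fat, so HFD sample 2 stood apart.

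**Figure D1:**
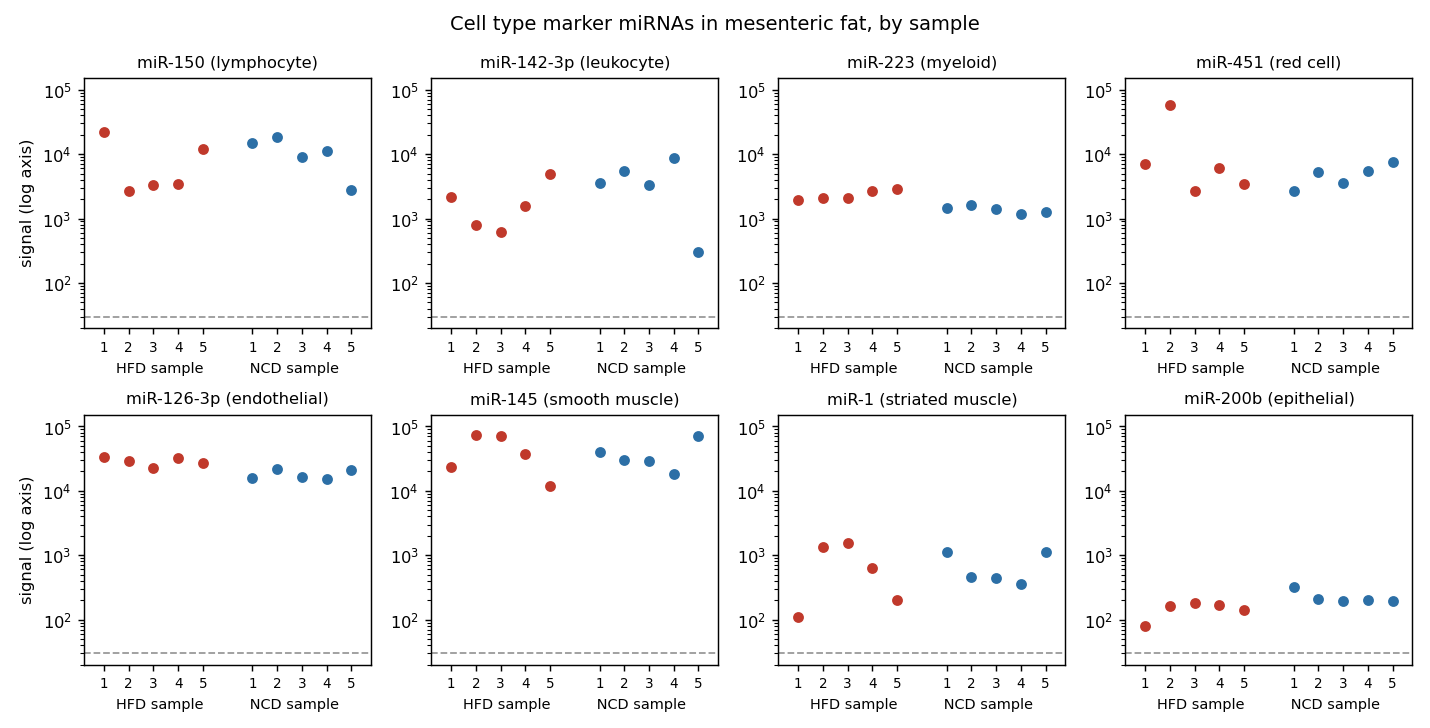
Signal (log axis) of 8 miRNAs that mark cell types, by sample, with the 5 HFD samples (red) left of the 5 NCD samples (blue) in each panel and the detection limit of 29.8 as a dashed line. miR-150 and miR-142-3p spread widely within both diets, miR-451 reached 57354 in HFD sample 2 alone, and miR-223 and miR-126-3p were higher in every HFD sample than in every NCD sample.

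A limited set of miRNAs differed between the diets, nearly all of them higher in HFD fat. Of the 157 tested, 23 were higher in HFD fat, which is 14.6% of all tested, and 1 was lower (0.637%), by limma on log2(signal + 1) at a Benjamini-Hochberg adjusted p under 0.05. With low values raised to the limit, miR-335-5p and miR-221 had the largest folds, 11.8 and 10.1, and miR-146b came next at 2.65. miR-222 and miR-335-3p were over the limit in every HFD sample and in no NCD sample, so their folds have only a lower bound. In 12 miRNAs every HFD value lay above every NCD value (7.64% of all tested), and all 12 were among the 23. Of the 23, 15 were over the limit in all 10 samples, and their HFD over NCD folds ran from 1.59 to 11.8 with a median of 2.08. The 23 made up 16.54% of the miRNA signal in HFD fat and 11.04% in NCD fat. The median log2 difference of all tested miRNAs was itself 0.31, so the levels as deposited were shifted toward HFD. All 23 lay above that median, by at least 0.37. They were called for being higher in these same values, so this is no separate support.

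Leaving out 1 sample changed the number of calls: to 48 without HFD sample 1, 9 without HFD sample 2, 10 without HFD sample 4 and 14 without HFD sample 5, and 9, 8 and 8 without NCD samples 1, 3 and 4. Calls for miR-221, miR-222, miR-335-5p, miR-335-3p, miR-652, miR-322 and miR-199a-3p held in each of the 10 runs that left out a sample, that for miR-146b in 9, and those of the other 16 miRNAs in 2 to 5. HFD sample 1 was the lowest of its group in 16 of the 23 miRNAs called higher, and HFD sample 4 the highest in 16. The split of the calls depended on scaling, through calls lost and other miRNAs gained, while no called miRNA turned direction: where samples were centred on their median or quantile normalized, 18 were higher and 5 lower in each case, and after scaling to the 100 most abundant miRNAs 15 were higher and 9 lower. With the authors' factor undone it was 53 higher and 1 lower, and with positive controls as the scale 35 and 0. The calls for miR-126-3p, miR-15a and miR-223 were lost under centring, quantile normalization and scaling to the 100 most abundant, those for miR-132, miR-342-3p and miR-34a under the first and last of these, that for miR-329 under the last 2, that for miR-1224 under the last and that for miR-322 under quantile normalization. Those for miR-221, miR-222, miR-335-5p, miR-335-3p and miR-652 held in each of the 13 alternatives, other than leaving out a sample, in which they were tested.

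**Figure D2:**
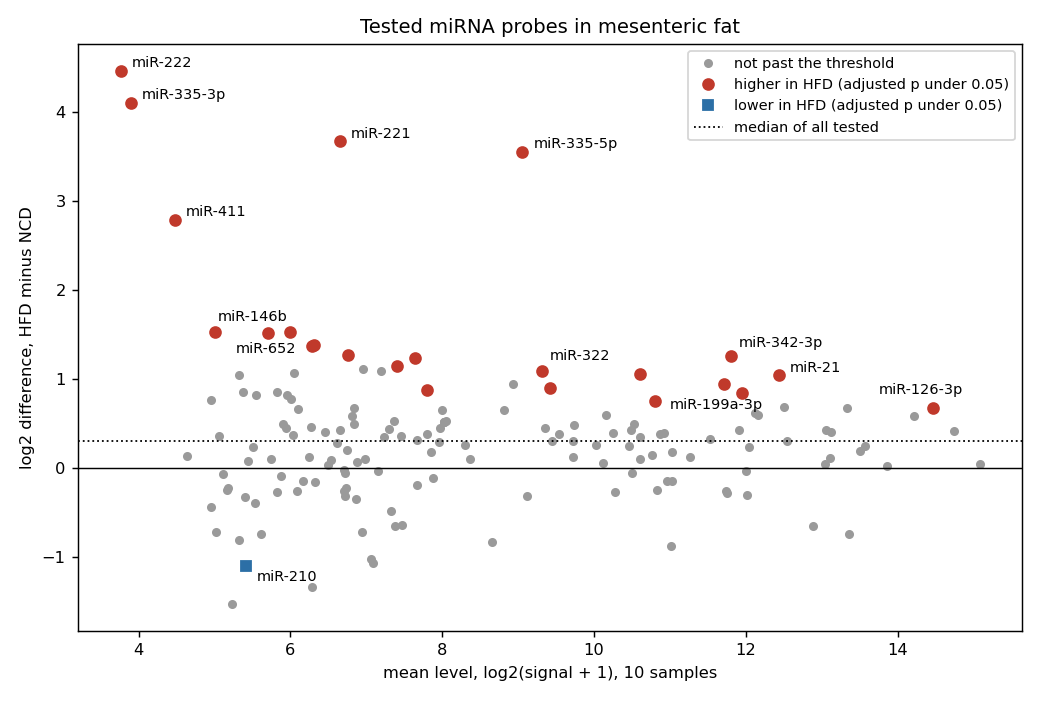
Log2 difference, HFD minus NCD, against the mean log2(signal + 1) over the 10 samples for each of the 157 tested miRNA probes, with the 23 called higher in red, miR-210 as a blue square and the median of all tested, 0.31, as a dotted line. Of the 4 highest points, miR-221 and miR-335-5p lie at 3.67 and 3.56, while the positions of miR-222 and miR-335-3p, with no NCD sample over the limit, depend on the pseudocount and give no size.

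miR-221 and miR-222 target cell cycle inhibitors and the receptor Kit, and both have been described as raised in fat of obese mice. miR-221 had signals of 212, 421, 364, 430 and 427 in HFD fat, against 15.3, 53.9, 14.9, 32.7 and 36.2 in NCD fat. The groups did not overlap, although HFD sample 1 was well below its fellows. The mean was 371 ± 92.8 in HFD fat and 30.6 ± 16.3 in NCD fat (SD, n = 5 each), where only 3 samples were over the limit. The log2 difference was 3.67 ± 0.37 (SE, limma adjusted p = 2.5e-05), and the fold was 10.1 with low values raised to the limit. miR-222 had 37.5, 96.7, 44.9, 77.5 and 80.2 in HFD fat, against 1.00, 2.62, 1.02, 3.64 and 2.05 in NCD fat. Every HFD sample was over the limit and every NCD sample was at or near the floor of the scale. Its signal was therefore at least 2.12-fold higher in HFD fat (limma adjusted p = 2.5e-06). The fitted log2 difference of 4.47 is no measure of size here, and it ran from 1.06 to 4.71 over the alternatives tried. miR-1928, the other probe with this seed, was over the limit in no sample.

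miR-335 is encoded in an intron of Mest, an imprinted gene whose transcript is known in mice to increase in fat that is gaining mass. miR-335-5p had 1469, 1811, 1582, 2354 and 2057 in HFD fat, against 292, 127, 76.2, 93.5 and 330 in NCD fat. The groups were far apart, with the lowest HFD sample well above the highest NCD sample. The mean was 1855 ± 359 in HFD fat and 184 ± 118 in NCD fat, and the fold of the back-transformed log2 means was 11.8 (log2 3.56 ± 0.40, SE, limma adjusted p = 5.6e-05). miR-335-3p, from the other arm, had 61.9, 68.7, 57.3, 71.5 and 48.8 in HFD fat, against 6.45, 1.17, 1.02, 1.27 and 7.11 in NCD fat. As for miR-222, all HFD samples and no NCD sample were over the limit, and the signal was at least 2.05-fold higher in HFD fat (limma adjusted p = 2.5e-05). NCD samples 1 and 5 were the higher ones of their group for both arms. Of all 566 probes, miR-222 and miR-335-3p were the only 2 over the limit in every HFD sample and in no NCD sample.

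**Figure D3:**
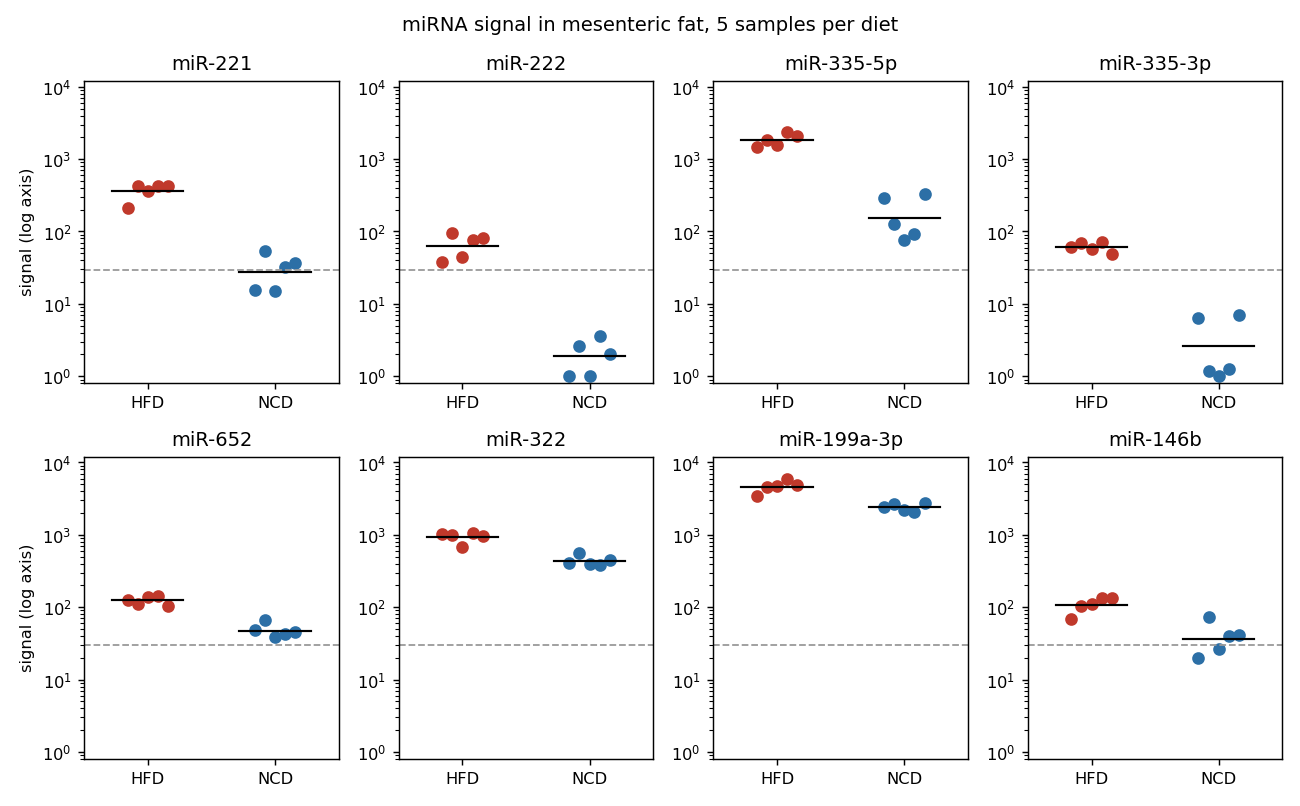
Signal (log axis) of 8 miRNAs in each sample, with HFD (red) left of NCD (blue), the back-transformed mean of log2(signal + 1) as a black line and the detection limit of 29.8 as a dashed line. All HFD values lie above all NCD values in each panel except that of miR-146b, where HFD sample 1 (68.2) is under NCD sample 2 (73.8).

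miR-652 and miR-322 lie on chromosome X, like miR-221 and miR-222. miR-652 had 127, 112, 138, 142.7 and 105 in HFD fat, against 48.3, 65.6, 38.4, 42.9 and 45.0 in NCD fat. The groups were well apart, and the mean was 125 ± 16.2 in HFD fat and 48.0 ± 10.4 in NCD fat (log2 difference 1.37 ± 0.20, SE, limma adjusted p = 0.00064). miR-322, the mouse counterpart of human miR-424 and a regulator of the cell cycle, had 1041, 980, 673, 1065 and 976 in HFD fat, against 405, 562, 398, 383 and 453 in NCD fat. HFD sample 3 was low but still above each NCD sample, and the log2 difference was 1.10 ± 0.20 (SE, limma adjusted p = 0.0045). Of 9 tested probes placed on chromosome X, 5 were called higher (miR-221, miR-222, miR-322, miR-223 and miR-652), beside 14.6% of all tested. That share is over all 157 tested probes, of which 109 could be placed on 1 chromosome, so it is not a like background. Chromosomes 12 and 11 held the most placed probes, with 5 of 18 and 2 of 17 called higher. miR-221 and miR-222 lie in 1 cluster, and miR-222 met the filter through the HFD samples alone. The probes next to miR-322 in its cluster, miR-503 and miR-351, stayed at the floor, and miR-450a-5p was over the limit in 3 HFD samples and 1 NCD sample and was not tested.

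The 6 members of the miR-15/16 seed group, known to restrain cyclins and Bcl2, all had higher means in HFD fat, as did 70.7% of all tested, and 2 passed the test (33.3%, beside 14.6% of all tested). miR-15a averaged 961 ± 233 in HFD fat and 511.5 ± 120 in NCD fat (log2 difference 0.90 ± 0.24, SE, limma adjusted p = 0.029), and HFD sample 3, at 589, lay under NCD sample 2, at 702. miR-16, which lies next to miR-15a and again beside miR-15b on chromosome 3, and is the fourth most abundant miRNA, averaged 23809 ± 5750 in HFD fat and 16022 ± 5167 in NCD fat (log2 difference 0.59, 95% interval 0.05 to 1.13, limma adjusted p = 0.14). miR-195 had a log2 difference of 0.66 (adjusted p = 0.089), miR-497 of 0.45 and miR-15b of 0.33 in the limma fit. Differences between members were not tested. Beside all tested miRNAs, with a median log2 difference of 0.31, the 6 had a median of 0.62.

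**Figure D4:**
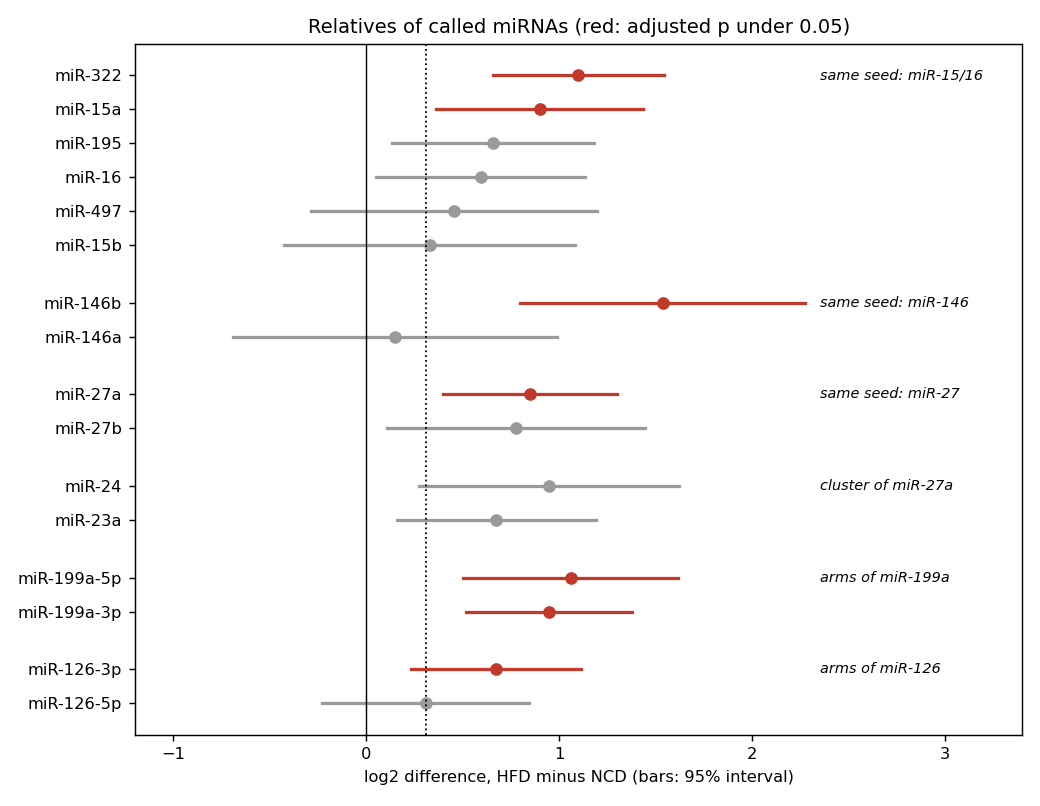
Log2 difference, HFD minus NCD, with its 95% interval for called miRNAs and for relatives by seed, cluster or hairpin, with those past the threshold in red and the median of all tested miRNAs, 0.31, as a dotted line. The intervals of called miRNAs overlap those of uncalled relatives in each group that has both.

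Several miRNAs known to respond to lipopolysaccharide or NF-kB, an inflammatory transcription factor, rose. Of 16 probes on that list 11 were tested, and 6 were called higher (54.5%, beside 14.6% of all tested), none lower; the median log2 difference was 0.75, beside 0.31 for all tested. Of the 6, miR-222 met the filter through the HFD samples alone, since no NCD sample had it over the limit. The list was drawn up with earlier results of these data known, and its direction is no independent evidence. miR-146b, which like miR-146a acts on the adaptors Traf6 and Irak1, had 68.2, 104, 110, 136 and 136 in HFD fat, against 19.8, 73.8, 26.2, 40.3 and 41.2 in NCD fat. HFD sample 1 alone fell within the NCD range, and the log2 difference was 1.53 ± 0.34 (SE, limma adjusted p = 0.014). miR-146a averaged 1941 ± 775 in HFD fat and 1827 ± 765 in NCD fat (log2 difference 0.15, 95% interval -0.69 to 0.99, limma adjusted p = 0.80). The difference between these 2 was not tested.

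miR-21, an abundant miRNA linked to fibrosis, averaged 8077 ± 1582 in HFD fat and 4100 ± 1747 in NCD fat (log2 difference 1.04 ± 0.28, SE, limma adjusted p = 0.028). NCD sample 2, at 7058, lay within the HFD range of 6198 to 9704. miR-132, induced by the transcription factor CREB, averaged 310 ± 77.0 in HFD fat and 166 ± 38.2 in NCD fat (log2 difference 0.88, limma adjusted p = 0.034), while miR-212, with the same seed and from the same cluster, was at the floor in all 10 samples. miR-155, an inflammatory miRNA of immune cells, was also at the floor in all 10. miR-34a, a target of p53 that lowers Sirt1, had 153, 172, 169, 176 and 171 in HFD fat, against 59.8, 143.7, 36.4, 45.4 and 108 in NCD fat. The HFD values were tightly grouped and lay just above the highest NCD value, with a log2 difference of 1.27 ± 0.34 (SE, limma adjusted p = 0.029). The relatives with its seed, miR-34b-5p and miR-449a, were over the limit in no sample.

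Of the miRNAs that mark immune and vessel cells, 1 of 3 tested myeloid probes, 1 of 5 lymphocyte probes and 1 of 2 endothelial probes were called higher, beside 14.6% of all tested. miR-223, a miRNA of neutrophils and macrophages, had 1946, 2103, 2067, 2710 and 2921 in HFD fat, against 1472, 1595, 1396, 1196 and 1259 in NCD fat, without overlap (log2 difference 0.75 ± 0.19, SE, limma adjusted p = 0.026). The other myeloid probes on the list did not pass: miR-142-3p averaged 2000 ± 1708 in HFD fat and 4270 ± 3109 in NCD fat (limma adjusted p = 0.49), and miR-511 was over the limit in no sample. The summed signal of the 6 myeloid probes ran from 2978 to 7993 in HFD fat and from 1865 to 10217 in NCD fat. miR-342-3p, encoded in Evl and common in lymphocytes, had 5492, 3914, 5848, 5437 and 7728 in HFD fat, against 3293, 3945, 2251, 2500 and 921 in NCD fat. HFD sample 2 fell just under NCD sample 2, and the log2 difference was 1.26 ± 0.36 (SE, limma adjusted p = 0.034). The sum of the 7 lymphocyte probes ran from 14373 to 31480 in HFD fat and from 10138 to 28173 in NCD fat. Both sums overlapped between the diets, and their part in the 2 calls was not tested.

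miR-126-3p, from an intron of Egfl7 and a miRNA of endothelial cells, was the third most abundant miRNA and the only one of the 10 most abundant that was called. It had 33686, 29177, 22265, 32076 and 27113 in HFD fat, against 15730, 21912, 16554, 15219 and 21349 in NCD fat. The lowest HFD value was close to the highest NCD value, and the log2 difference was 0.67 ± 0.20 (SE, limma adjusted p = 0.040). The other arm, miR-126-5p, averaged 983 ± 308 in HFD fat and 765 ± 94.9 in NCD fat (log2 difference 0.31, limma adjusted p = 0.41).

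Both arms of miR-199a, a miRNA of mesenchymal cells and fibroblasts, were higher. miR-199a-3p had 3479, 4605, 4659, 5913 and 4863 in HFD fat, against 2427, 2694, 2216, 2046 and 2728 in NCD fat, without overlap (log2 difference 0.95 ± 0.20, SE, limma adjusted p = 0.011). miR-199a-5p averaged 2334 ± 647 in HFD fat and 1094 ± 218 in NCD fat (log2 difference 1.06 ± 0.25, SE, limma adjusted p = 0.022), and HFD sample 1, at 1301, lay under NCD sample 2, at 1413. Of the 6 mesenchymal probes 5 were tested, and the 2 called higher were the arms of miR-199a (40.0%, beside 14.6% of all tested). All 5 had higher means in HFD fat, as did 70.7% of all tested. The summed signal of the 6 ran from 16731 to 25813 in HFD fat and from 11089 to 14487 in NCD fat, without overlap. The sum holds both called arms of miR-199a, so its lack of overlap is no separate support. Its largest member, miR-22, averaged 10413 ± 2179 in HFD fat and 7745 ± 744 in NCD fat (limma adjusted p = 0.18). The part of each member in the sum's difference was not tested. miR-214, which lies 5553 bases from the chromosome 1 copy of miR-199a, was over the limit in 3 HFD samples and no NCD sample and was not tested.

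Of 22 probes for miRNAs that increase during or favour adipocyte differentiation, 20 were tested. None was higher, beside 14.6% of all tested, and miR-210 was lower, beside 0.637%; their median log2 difference was 0.01, beside 0.31 for all tested. After scaling to the 100 most abundant miRNAs 4 members were called lower: miR-210, miR-193, miR-30c and miR-378 (limma adjusted p = 0.0446 for each of the last 2). Under that scaling 9 of all 157 tested were called lower, and the median log2 difference of all tested was -0.01. miR-143 averaged 10173 ± 6022 in HFD fat and 8583 ± 2598 in NCD fat (limma adjusted p = 0.93). miR-103, which acts on insulin sensitivity, averaged 1472 ± 382 in HFD fat and 1514 ± 385 in NCD fat (adjusted p = 0.91 in the limma fit). All 5 miR-30 probes were tested and none passed, with log2 differences from -0.35 for miR-30e to 0.30 for miR-30b. Of 16 probes for miRNAs that oppose adipocyte differentiation 9 were tested and 3 were higher (33.3%, beside 14.6% of all tested): miR-221, miR-222 and miR-27a, with a median of 0.62 over the 9. Of these, miR-222 met the filter through the HFD samples alone. The 9 let-7 probes were all tested, none passed, and their median was 0.31.

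miR-27a, which represses the adipocyte regulator Pparg, had 3787, 5936, 5354, 6594 and 5336 in HFD fat, against 3132, 2800, 2540, 2741 and 3652 in NCD fat. The groups did not overlap, with HFD sample 1 just above the highest NCD sample (log2 difference 0.85 ± 0.21, SE, limma adjusted p = 0.022). Its neighbours in the cluster on chromosome 8 did not pass: miR-24 had a log2 difference of 0.95 (limma adjusted p = 0.060) and miR-23a of 0.67 (limma adjusted p = 0.082). miR-27b, with the same seed, averaged 88.5 ± 30.7 in HFD fat and 49.7 ± 14.1 in NCD fat (log2 difference 0.77, 95% interval 0.11 to 1.44, limma adjusted p = 0.12).

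miR-210, which hypoxia induces through HIF-1, was the only miRNA called lower. It had 14.9, 27.6, 39.7, 47.8 and 22.1 in HFD fat, against 59.8, 66.8, 60.9, 46.7 and 77.9 in NCD fat. HFD sample 4 reached into the NCD range, and 3 of the 5 HFD samples were under the limit. The log2 difference was -1.10 ± 0.30 (SE, limma adjusted p = 0.029), and the NCD over HFD fold was 1.77 with low values raised to the limit. The call was lost without any 1 of 7 samples. The other miRNAs with the smallest p among those with lower means did not pass: miR-193, miR-200b, miR-466g and miR-762. miR-200b, of epithelial cells, had 78.2, 162, 183, 169 and 142.9 in HFD fat, against 320, 212, 198, 200 and 195 in NCD fat, without overlap but with a limma adjusted p of 0.13. miR-193, a relative of the brown fat miRNA miR-193b, averaged 110 ± 54.2 in HFD fat and 193.9 ± 42.9 in NCD fat (limma adjusted p = 0.16). After centring, quantile normalization or scaling to the 100 most abundant miRNAs, miR-193, miR-200b, miR-203 and miR-466g were called lower beside miR-210, with adjusted p from 0.012 to 0.041 for these 4 in limma.

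The Dlk1-Dio3 locus on chromosome 12 is an imprinted region whose long miRNA cluster is transcribed from the maternal allele. Of its 56 probes 15 were tested and 4 were higher (26.7%, beside 14.6% of all tested), none lower. The 15 all had higher means in HFD fat and a median log2 difference of 1.05, beside 0.31 for all tested and 111 of 157 (70.7%) with a higher mean. Of the 15, miR-411 and miR-434-5p were over the limit in 5 HFD samples and 1 NCD sample, so they met the filter mainly through HFD fat. The median of 1.05 is the value of miR-434-5p. miR-411 had 32.1, 84.7, 40.7, 109 and 51.9 in HFD fat, against 1.00, 23.6, 1.02, 12.5 and 31.1 in NCD fat. All HFD values were over the limit and above all NCD values, but HFD sample 1 exceeded NCD sample 5 by about 1 unit, and with low values raised to the limit the call was lost. miR-495 averaged 94.2 ± 35.4 in HFD fat and 32.3 ± 13.1 in NCD fat, and miR-382 averaged 132 ± 38.7 in HFD fat and 52.8 ± 26.6 in NCD fat (both with limma adjusted p = 0.022). miR-329 averaged 265 ± 96.8 in HFD fat and 121 ± 49.7 in NCD fat (limma adjusted p = 0.040). The next probes of the cluster in order of p, miR-434-3p and miR-434-5p, had log2 differences of 1.09 and 1.05 with limma adjusted p of 0.062 and 0.086. The smallest difference among the 15 was that of miR-377, at 0.11.

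**Figure D5:**
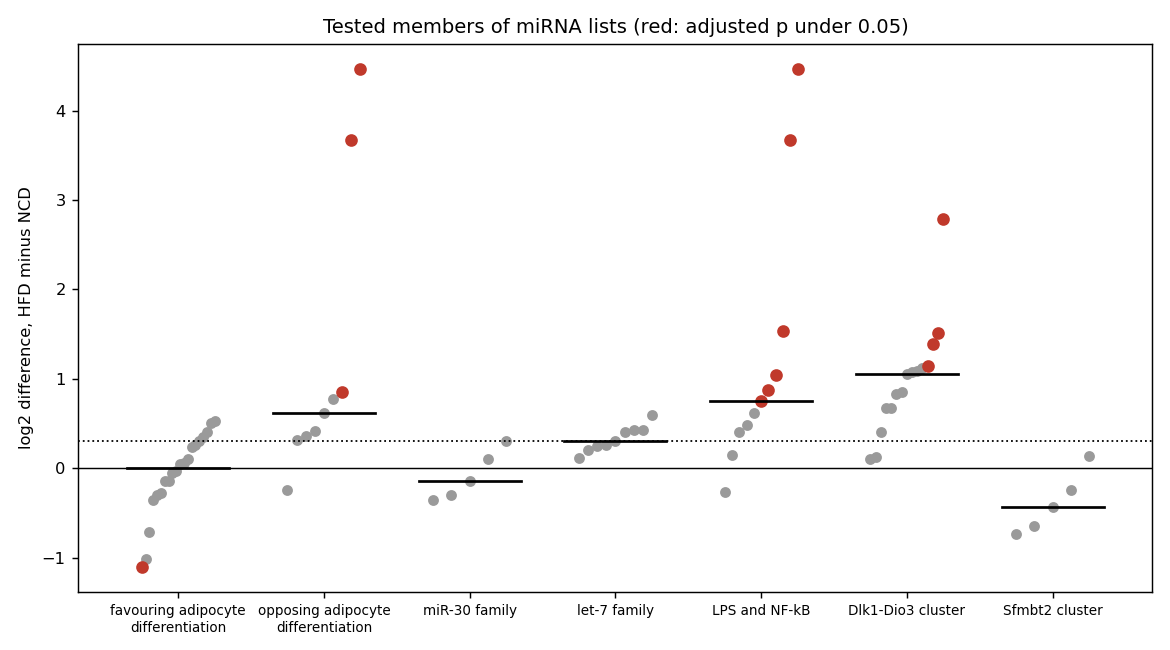
Log2 difference, HFD minus NCD, of each tested member of 7 miRNA lists, with members past the threshold in red, each list's median as a black bar and the median of all tested miRNAs, 0.31, as a dotted line. The Dlk1-Dio3 members all lie above 0, the list favouring adipocyte differentiation is centred near 0 with miR-210 lowest, and miR-221 and miR-222 are the 2 highest points in both lists that hold them.

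The other calls were miR-149 and miR-1224. miR-149, within Gpc1, averaged 56.6 ± 19.6 in HFD fat and 20.4 ± 12.6 in NCD fat, where 1 sample was over the limit (log2 difference 1.53 ± 0.38, SE, limma adjusted p = 0.023). The call was lost with low values raised to the limit. miR-1224, cut from an intron of Vwa5b2, averaged 324 ± 119 in HFD fat and 139 ± 57.1 in NCD fat (log2 difference 1.23 ± 0.34, SE, limma adjusted p = 0.030), and HFD sample 1, at 188, lay under NCD sample 1, at 214.6. Of the miRNAs linked to brown or beige fat, 11 of 16 probes were tested and 2 were higher, miR-27a and miR-34a (18.2%, near the 14.6% of all tested), with a median of -0.14 over the 11. The rest of the 10 most abundant miRNAs did not pass, among them miR-145 at 43475 ± 28076 in HFD fat and 37808 ± 20123 in NCD fat (limma adjusted p = 0.94). The 10 made up 52.25% of the signal in HFD fat and 51.58% in NCD fat.

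Abdominal aorta (AA) from mice on the same diets, 3 samples per diet, was set beside the fat. The diet effect in fat minus that in aorta was tested for 175 miRNAs in 1 limma fit of the 4 groups, and 3 passed (1.71%). For miR-222 this difference of effects was 4.59 ± 0.51 on the log2 scale (SE, limma adjusted p = 3.7e-05), for miR-335-3p 4.24 ± 0.63 (limma adjusted p = 0.00061) and for miR-335-5p 4.30 ± 0.86 (limma adjusted p = 0.0092). miR-222 and miR-335-3p were under the limit in all 6 aortas, so their aortas give only a bound, and raising low values to the limit gave miR-222 an adjusted p of 0.152 in limma. miR-335-5p averaged 12.3 ± 7.89 in HFD aorta and 22.3 ± 18.7 in NCD aorta, where 1 sample was over the limit. Its 4.30 thus rests in part on aorta values under the limit. For miR-221, which no aorta had over the limit, the test was not passed (difference of effects 1.96 ± 0.79, limma adjusted p = 0.39). With low values raised to the limit the limma adjusted p was 8.2e-06. All 6 aortas then held the same value and added no spread, so this p cannot decide whether the effects differ. Of the 23 miRNAs higher in HFD fat, 10 were over the limit in all 6 aortas, and all 10 had a higher mean in HFD aorta, by 0.09 to 0.81 on the log2 scale with a median of 0.43. This is near the background, since 66 of all 77 miRNAs over the limit in all 6 aortas (85.7%) had a higher mean in HFD aorta, with a median of 0.25. miR-652 for example averaged 91.3 ± 5.77 in HFD aorta and 61.0 ± 5.17 in NCD aorta, and its effect did not differ detectably between the tissues (limma adjusted p = 0.30).

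Of the 4 messenger RNA probes in the panel, B2m, part of the MHC class I complex, had 9989, 7399, 9137, 7162 and 7279 in HFD fat, against 5678, 5188, 7276, 4057 and 3916 in NCD fat. HFD sample 4 and NCD sample 3 overlapped slightly, with an exact two-sided permutation p of 0.0159 (0.0476 adjusted over the 4). Rpl19, of the large ribosomal subunit, averaged 1774 ± 285 in HFD fat and 2203 ± 195 in NCD fat (exact two-sided permutation p = 0.0238, adjusted 0.0476). Actb (exact permutation p = 0.817) and Gapdh (exact permutation p = 0.603) did not pass. These 4 probes carry the authors' factor, which averaged 0.94 ± 0.10 in HFD fat and 1.12 ± 0.16 in NCD fat. Rpl19 was lower in HFD fat, as this factor was, while B2m was higher. No messenger RNA probe was tested with the factor undone.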

How the data were processed

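The authors deposited 1 table of signal values. Read directly, the deposited values had background taken off, a floor of 1 and, apart from the controls, 1 factor per sample: in the 10 fat samples all (100%) values below 60 fitted whole steps of it to within 0.1, and it ran from 0.784 to 1.27. How the factor and background were set is not given in the sources used here. A count test was not run, since background had been subtracted.

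Probes over the limit of 29.8 (mean + 2 SD of 240 negative control values) in at least 5 of 10 samples were tested with limma 3.58.1 (R 4.3.3; lmFit, eBayes) on log2(signal + 1), on the HFD and NCD fat samples alone, with Benjamini-Hochberg adjustment over all tested and calls under 0.05. Fold changes of low miRNAs on this scale depend on the pseudocount and on the floor of 1. For miR-222 the HFD over NCD fold was 22.1 on this scale and 2.12 with low values set to the limit. Where some samples were under the limit, values were set to it for the fold, and "at least" marks a group with none over it. The 9 probes for several miRNAs were not split. The fit was tested on simulated data. Values of 1 per sample had exact permutation tests (252 splits, smallest p 0.00794). No 2 samples held the same values. Barcode depth above background limits the precision of low values.

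Named were all called miRNAs, the 5 smallest p among lower ones, list members, relatives by arm, seed and cluster within 10 kb, the 10 most abundant and the cell type markers. miR-155 and the B2m, Rpl19, Actb and Gapdh probes were also given. The members and lists were chosen with earlier results of these data known. Positions and sequences are RefSeq GRCm38.p6. Alternatives were another pseudocount, filter, limit, scaling, moderation, weights, fit or threshold, a replicate block and leaving out each sample. Same-numbered samples did not pair (correlations of deviations from -0.632 to 0.271).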

Additional observations from a re-analysis of the deposited data

Results flagged for a closer look

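Single samples stood far from the rest of their group of 5 in 6 of 102 groups examined (51 miRNAs in both diets), where chance alone flags about 1 in 20, and 3 of the 6 were HFD sample 1. In that sample miR-200b was low at 78.2 (the other 4 HFD samples 142.9 to 183), miR-221 was low at 212 (364 to 430) and miR-29c was low at 1927 (4073 to 5498). miR-322 was low in HFD sample 3 at 673 (976 to 1065). The red cell miRNA miR-486 was high in HFD sample 2 at 2264 (129 to 251). miR-200b was high in NCD sample 1 at 320 (195 to 212).

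The diet effect in fat minus that in aorta passed limma's test of that difference for miR-335-5p, at 4.30 on the log2 scale. It also passed for miR-222 (4.59) and miR-335-3p (4.24), but these values depend on the pseudocount and give no size, because no NCD fat and no aorta sample was over the detection limit. With low values raised to the limit the limma adjusted p was 0.152 for miR-222, which then did not pass, 0.00945 for miR-335-3p and 0.000514 for miR-335-5p. For miR-222 and miR-335-3p all NCD fat and aorta samples then held the same value and added no spread, so these p-values cannot decide. For miR-335-5p only 1 aorta, on NCD, was over the limit, and all other aortas then held the same value. Its p-value thus rests on little aorta spread, and its 4.30 rests in part on aorta values under the limit.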

How the results depend on the processing

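The 24 calls became 13 with no filter, 54 with the authors' factor undone, 62 with sample weights, 10 with all 30 samples in 1 fit and 8 with a replicate block, whose numbers do not pair the samples (1 of 5 matched its own number best). Leaving out 1 sample gave 8 to 48. The other alternatives gave 18 to 35. The log2 difference in total signal, 0.31, was 0.56 with the factor undone (p = 0.00794) and 0.57 scaled to positive controls (p = 0.0238), and 0.22 to 0.39 with 1 sample left out (exact permutation p from 0.0397 to 0.119). The 3 differences from aorta became 3 to 7 with 1 sample left out. The cause of these changes was not tested. Scaling moved the median log2 difference of all tested miRNAs from 0.31 to between -0.03 and 0.57. Over 546 values of called miRNAs under alternatives, 371 kept their call, 175 lost it and 0 changed direction. Signals of miR-222, miR-335-3p, miR-411, miR-149 and miR-210 lay near the limit, so that depth limits their folds.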

Other observations

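Of the 33 probes of the Sfmbt2 intron cluster, a rodent family of repeated miRNAs, 5 were tested and none was called, beside 15.3% of all tested, with a median log2 difference of -0.44 beside 0.31 for all tested. miR-466g averaged 140.6 ± 52.8 in HFD fat and 210 ± 45.3 in NCD fat (limma adjusted p = 0.17). All 3 miR-29 probes, which restrain collagens, were tested and none passed, and miR-29a averaged 15219 ± 2863 in HFD fat and 14858 ± 1980 in NCD fat (limma adjusted p = 0.93). Of the 8 fibrosis-linked probes 6 were tested and 2 were higher, miR-21 and miR-199a-5p (33.3%, beside 14.6% of all tested), with a median of 0.44. The miR-17-92 and paralogous clusters, which promote proliferation, had 7 of 11 probes tested and none called, with a median of 0.26. Of the 2 tested striated muscle probes and the 2 smooth muscle probes none was called.

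miR-720 and miR-1937c, chosen after their values were seen, had lower means in HFD fat without passing. miR-720 averaged 8308 ± 1775 in HFD fat and 15271 ± 8723 in NCD fat (limma adjusted p = 0.17), with NCD sample 4 at 29808. miR-1937c averaged 95.7 ± 22.5 in HFD fat and 270.0 ± 233 in NCD fat (limma adjusted p = 0.19), with NCD sample 3 at 625.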
